A study of Mus musculus with 8 samples.

Results

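The genes described here are 10 members of the bone morphogenetic protein (BMP) and TGF-beta signalling pathway in granulosa cells of the mouse ovary, which surround and nourish the oocyte in a follicle: Smad1, Smad2, Smad3, Smad4, Smad5, Bmpr1a, Bmpr1b, Bmpr2, Id1 and Id2. They were chosen by symbol, and all 10 were found among the 23235 symbols of the deposited expression table. RNA was measured in 8 libraries of 4 groups with 2 libraries each, from female C57BL/6 mice. The groups were wild type (WT) without treatment (0 h), WT taken 44 h after treatment with PMSG, a hormone that acts like FSH and drives follicle growth, and double knockouts of Cnot6 and Cnot6l (KO) at the same 2 times. CNOT6 and CNOT6L are deadenylases of the CCR4-NOT complex, which shortens the poly(A) tails of mRNAs. The knockout alleles, the age of the mice, the PMSG dose and any pooling of animals were not given in the sources used here, nor whether the 2 libraries of a group came from different mice. The p-values therefore reflect just how much these libraries vary, and that variation may be technical.

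BMPs and related ligands bind pairs of type II receptors, such as BMPR2, and type I receptors, such as BMPR1A and BMPR1B. The type I receptor then phosphorylates a SMAD protein: SMAD1 and SMAD5 on the BMP side, SMAD2 and SMAD3 on the activin and TGF-beta side. SMAD4 joins either kind and enters the nucleus with it, and the ID genes, which encode inhibitors of basic helix-loop-helix transcription factors, are well-known BMP targets. In the follicle the oocyte ligands GDF9 and BMP15 use BMPR2 on granulosa cells, GDF9 mainly with SMAD2 and SMAD3 and BMP15 with BMPR1B and SMAD1 and SMAD5.

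Values are FPKM (fragments scaled to transcript length and library size) and are comparable between genes. All 12 granulosa markers examined were present, Foxl2 among them at 14.1 to 25.2 FPKM. Libraries differed little in relative depth (0.904 to 1.26, where 1 is the median library), and the absolute depth is not known. The targeted gene Cnot6 had 29.1 and 18.4 FPKM in the untreated WT libraries against 11.7 and 12.01 in untreated KO, and 26.0 and 26.9 in treated WT against 26.7 and 17.4 in treated KO, so that the library labelled KO replicate 1 at 44 h lay within the WT range. For Cnot6l the untreated libraries had 6.11 and 7.07 (WT) against 4.69 and 1.97 (KO), and the treated ones 4.20 and 2.63 (WT) against 2.01 and 1.61 (KO). The 2 KO libraries at 44 h were also the least alike, with 2357 genes at least 2-fold apart against 905 to 983 in the other groups. Along the difference between the WT groups over all genes tested, where the WT 0 h mean is 0 and the WT 44 h mean is 1, replicate 1 of this pair stood at 0.31 and replicate 2 at 0.841. Cyp11a1, a steroidogenic gene, was 129 FPKM in replicate 1 and 2508 in replicate 2, against 4451 and 4339 in WT at 44 h.

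The group means of the 10 genes ran from percentile 26.8 (Smad1, KO at 0 h) to percentile 97.4 (Id2, WT at 44 h) of the genes tested. In WT at 0 h, Bmpr1b was the most abundant at 59.2 and 54.0 FPKM (percentile 83.2 of the 13688 genes tested), followed by Id2 at 53.2 and 46.6 and Id1 at 21.3 and 20.7. Smad4, Smad3 and Bmpr2 came next, with means of 11.3, 10.5 and 10.5 FPKM and overlapping libraries. Bmpr1a (9.48), Smad2 (8.13), Smad5 (4.97) and Smad1 (3.75) followed in that order, each apart from the next. At 44 h in WT the ID genes led instead, with Id2 at percentile 97.4 and Id1 at percentile 86.8, ahead of Bmpr1b. In that group Bmpr1a overlapped Smad4, and Smad2, Smad3, Bmpr2 and Smad1 overlapped along the order.

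**Figure D1:**
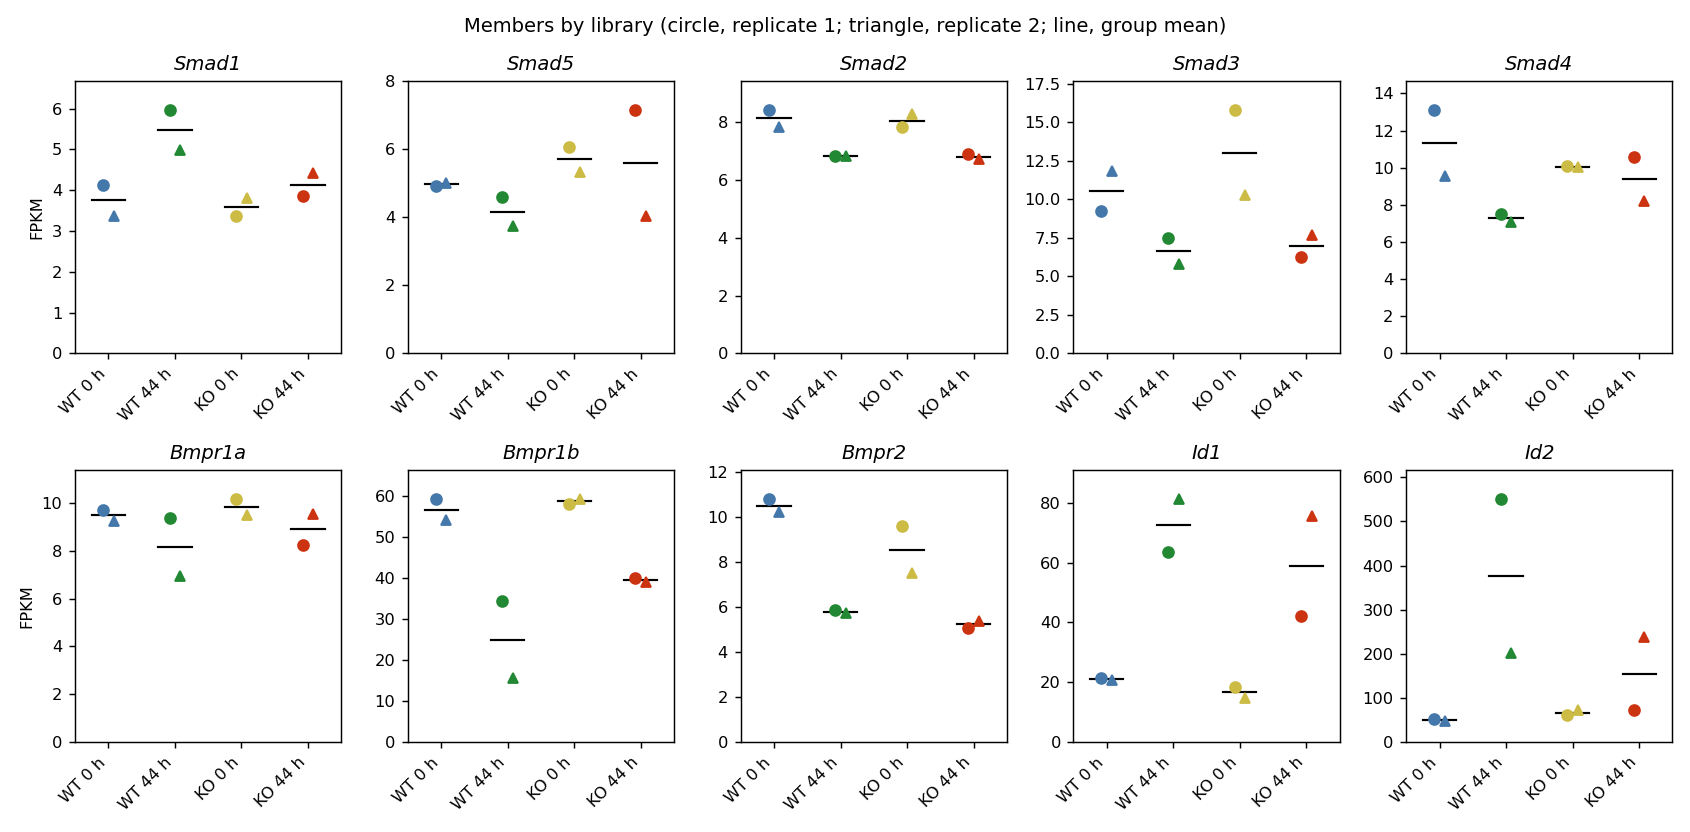
FPKM of each of the 10 genes (y axes, each starting at 0) in the 4 groups, with a circle for replicate 1, a triangle for replicate 2 and a line at the group mean. Id1 and Id2 lie above their 0 h libraries at 44 h in each genotype, Bmpr2 lies below, and Id2 differs 2.73-fold between the WT and 3.28-fold between the KO libraries at 44 h.

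The first comparison asked how the genes differed between untreated and PMSG-treated WT cells. Id1 and Id2 were higher, Bmpr1b, Bmpr2, Smad3 and Smad4 were lower, and Smad1 was slightly higher. Differences are given as 44 h minus 0 h on the log2(FPKM + 1) scale, where changes of low genes come out too small, with the standard error (SE) of a limma model fitted to all 8 libraries and Benjamini-Hochberg adjusted p over all 13688 genes tested. In that fit 0 of the 10 genes passed an adjusted p of 0.05, where limma called 0.0804% of all genes. At an unadjusted p under 0.05 there were 5 of the 10, against 24.1% of all genes. The libraries of the groups did not overlap for 3 genes that were higher at 44 h, against 22.5% of all genes, and for 6 that were lower, against 40.6% of all genes. The median difference was -0.22 over the 10 genes and -0.13 over all genes tested, the latter -0.014 after median-of-ratios scaling. The split of 3 higher and 7 lower held with that scaling and with quantile normalization.

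Among the receptors, Bmpr1b, a type I receptor whose loss impairs cumulus expansion in mice, was 59.2 and 54.0 FPKM at 0 h and 34.3 and 15.6 at 44 h. Both treated libraries were below both untreated ones, but they lay 2.2-fold apart from each other (-1.25, SE 0.32, adjusted p = 0.109 in limma). Bmpr2, the type II receptor shared by the BMPs, GDF9 and BMP15, was 10.8 and 10.2 at 0 h and 5.86 and 5.74 at 44 h. Its replicates were within 1.06-fold of each other at each time, and the difference was -0.76 (SE 0.19, adjusted p = 0.107). Bmpr1a, the broadly expressed type I receptor, was 9.72 and 9.24 at 0 h and 9.36 and 6.94 at 44 h, with 1 treated library inside the untreated range (-0.21, SE 0.20, adjusted p = 0.548).

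The SMADs differed less than the ID genes or Bmpr1b. Smad3, an activin and TGF-beta mediator, was 9.22 and 11.8 FPKM at 0 h and 7.49 and 5.79 at 44 h (-0.59, SE 0.26, adjusted p = 0.223). Its partner Smad2 was 8.41 and 7.85 and then 6.82 and 6.84, a smaller difference (-0.22, SE 0.17, adjusted p = 0.447). Smad4, the common partner, was 13.1 and 9.53 and then 7.48 and 7.06 (-0.56, SE 0.21, adjusted p = 0.174). For these 3 genes both treated libraries lay below both untreated ones. The BMP mediators differed in sign: Smad1 was 4.13 and 3.38 at 0 h and 5.96 and 4.998 at 44 h (0.45, SE 0.20, adjusted p = 0.228), and Smad5 was 4.92 and 5.02 and then 4.59 and 3.73 (-0.22, SE 0.26, adjusted p = 0.643). In neither gene did the groups overlap, and neither passed the test.

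The ID genes differed most. In WT, Id1 went from 21.3 and 20.7 FPKM at 0 h to 63.5 and 81.3 at 44 h (1.73, SE 0.28, adjusted p = 0.0776 in limma). Id2 was 53.2 and 46.6 at 0 h and 551 and 202 at 44 h, so that even the lower treated library was far above the untreated ones (2.72, SE 0.61, adjusted p = 0.102). Among all genes tested these differences stood at percentiles 98.2 and 99.3. With the 4 WT libraries alone, which leaves the KO libraries out of the estimate of spread, limma called 6.9% of genes and 2 of the 10, both ID genes: Id1 rose (adjusted p = 0.0091) and Id2 rose (adjusted p = 0.0352). Bmpr2 (adjusted p = 0.0598) and Bmpr1b (0.0874) did not pass there. With limma library weights, which called 11.9% of all genes, 4 of the 10 passed: Id1 and Id2 rose, and Bmpr1b (adjusted p = 0.0403) and Bmpr2 (0.0346) fell. With the filter reapplied to the WT libraries, 3 of the 10 passed against 12.8% of all genes: Id1 and Id2 rose and Bmpr2 fell (adjusted p = 0.044). Without KO replicate 1 or KO replicate 2 at 44 h the WT comparison called Id1 and Id2, 2 of the 10, against 9.74% and 9.72% of all genes.

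The promoters of Id2, higher after PMSG, and of Bmpr2, lower after PMSG, are shown as examples. Bmpr1b differed more than Bmpr2 in WT (-1.25 against -0.76) and is not shown. Each stretch is the 250 bases before the start site, from RefSeq build GRCm38.p6. The build named for the expression table is mm9. Of the 10 genes, 7 were matched to an entry in the promoter table used here, and Id1, Smad2 and Smad4 were not. Capitals mark GGCGCC, a GC-rich palindrome of the kind bound by BMP-side SMADs, searched on both strands.
Id2, chr12:25096093-25096342, minus strand: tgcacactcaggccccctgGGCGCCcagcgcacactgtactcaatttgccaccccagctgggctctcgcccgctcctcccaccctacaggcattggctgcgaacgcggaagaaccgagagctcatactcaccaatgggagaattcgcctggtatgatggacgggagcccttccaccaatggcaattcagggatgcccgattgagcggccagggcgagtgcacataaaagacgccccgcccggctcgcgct
Bmpr2, chr1:59764029-59764278, plus strand: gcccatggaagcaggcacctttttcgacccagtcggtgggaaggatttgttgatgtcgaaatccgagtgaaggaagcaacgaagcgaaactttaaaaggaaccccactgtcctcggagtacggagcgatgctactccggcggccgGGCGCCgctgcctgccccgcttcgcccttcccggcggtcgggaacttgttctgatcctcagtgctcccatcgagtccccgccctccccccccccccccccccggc
The match begins 231 bases before the start site in Id2 and 105 bases before it in Bmpr2, and 9.59% of all 32817 promoter windows of this length hold 1 or more. Bmpr1a and 1 of 3 Smad5 windows also hold it, and the Smad1, Smad3 and Bmpr1b windows do not. Neither window holds the cAMP response element TGACGTCA (1.55% of windows) or its shorter form TGACG, which the longer one contains (17.7% of windows). These matches describe letters only.

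Markers of other cells differed in the same comparison, and fewer cells of a type cannot be told apart from less RNA per cell in these bulk samples. Oocyte markers were lower at 44 h in WT in 14 of 14 tested (median -1.22), and their summed level was 1288 to 2232 FPKM at 0 h and 673 to 704 at 44 h. Endothelial markers were higher in 5 of 6 (median 0.63), with sums of 7.69 to 12.9 and 20.7 to 26.3 FPKM, and their defining genes Cdh5 and Kdr stayed at or below 1.94 FPKM in every library, while Cldn5 was 7.56 and 9.01 in WT at 44 h. Theca and stroma markers were higher in 10 of 11 (median 1.06; sums of 119 to 129 and 308 to 336), surface epithelium markers in 7 of 7 (median 0.59; sums of 135 to 165 and 211 to 216) and immune markers in 6 of 7 (median 0.19; sums of 158 to 176 and 169 to 240). Oviduct and ciliated markers were higher in 2 of 4, with sums of 6.77 to 16.5 at 0 h and 8.28 to 375 at 44 h. The highest sum was in WT replicate 1 at 44 h, where Id2 was 551 FPKM, and replicate 2 had 8.28 with Id2 at 202. In KO at 44 h the sums were 7.63 in replicate 1 and 298 in replicate 2, where Id2 was 72.3 and 237. In KO at 0 h they were 69.6 and 12.7, where Id2 was 60.9 and 71.7. In WT replicate 1 and KO replicate 2 at 44 h most of the sum was Ovgp1, which encodes an oviduct secretory protein, at 366 and 279 FPKM. No marker was listed at 0 in every library. The part of these cells in the differences of the ID, receptor and SMAD genes was not tested.

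**Figure D2:**
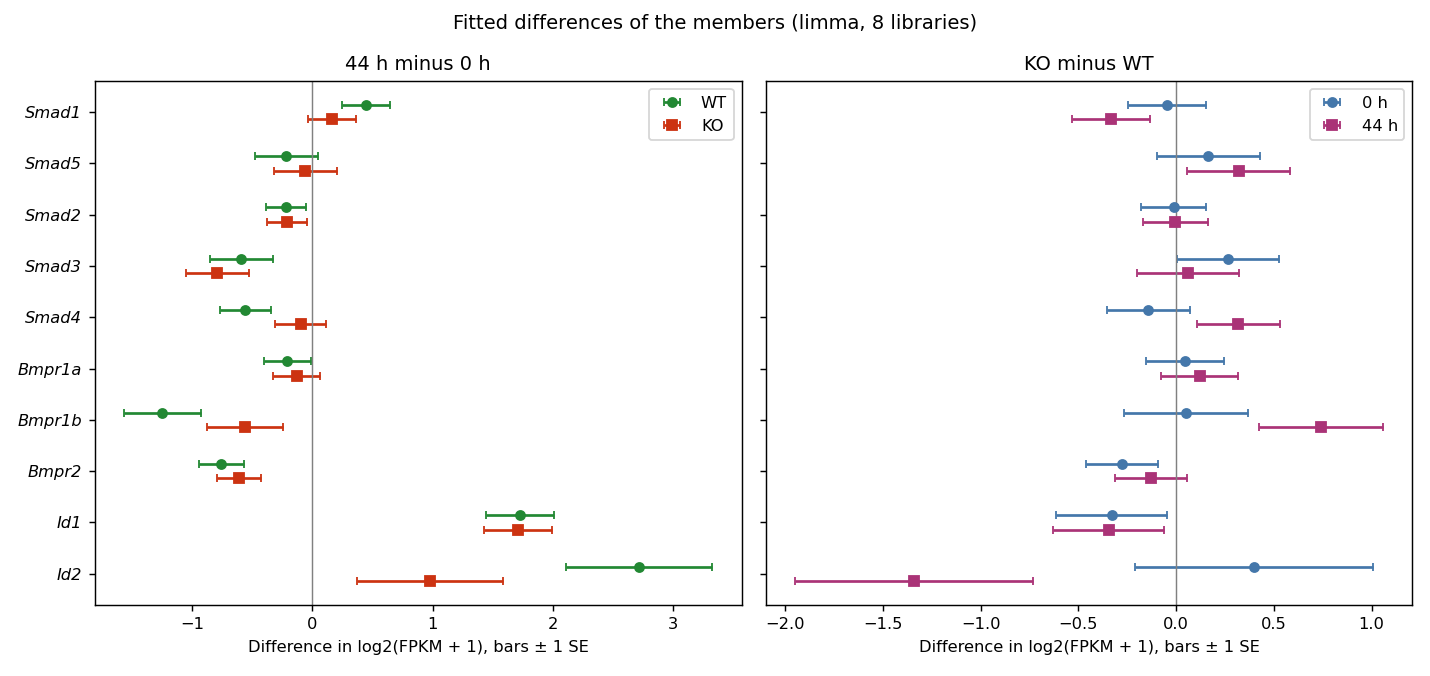
Differences in log2(FPKM + 1) for the 10 genes (x axes), with 1 SE from the limma fit over 8 libraries as bars; the left panel shows 44 h minus 0 h in WT and KO, the right panel KO minus WT at 0 h and 44 h. Id1 lies at 1.73 and 1.71 in the 2 genotypes, whereas Id2 lies at 2.72 in WT and 0.98 in KO.

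The same comparison in KO cells again put Id1 above and Bmpr2 and Smad3 below their 0 h levels, while Id2 differed between the libraries, as did many genes of this pair (above). Limma called 0 of the 10 genes against 0.139% of all genes. At an unadjusted p under 0.05 there were 3 (Id1, Bmpr2 and Smad3), against 21.1% of all genes. The libraries did not overlap for 3 genes that were higher (14.3% of all genes) and for 4 that were lower (34.1% of all genes). The median was -0.12 over the 10 genes and -0.11 over all genes. The split of 3 higher and 7 lower became 5 and 5 after median-of-ratios scaling and 6 and 4 after quantile normalization, through Smad4 and Smad5 under either scaling and Bmpr1a under the second.

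Id1 was 18.4 and 14.8 FPKM in KO at 0 h, and at 44 h it was 42.1 in replicate 1 and 75.5 in replicate 2 (1.71, SE 0.28, adjusted p = 0.0813). Against the KO 0 h mean the 2 libraries stood at 1.30 and 2.13, on the same side. Without replicate 1 limma called 8.54% of genes and 1 of the 10, Id1, which rose (adjusted p = 0.00623), and without replicate 2 its adjusted p was 0.0823. Id2 was 60.9 and 71.7 at 0 h, then 72.3 in replicate 1 and 237 in replicate 2 (0.98, SE 0.61, adjusted p = 0.397). Replicate 1 was thus 0.13 above the KO 0 h mean, and replicate 2 was 1.83 above it (adjusted p = 0.0737 without replicate 1).

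Bmpr1b, Bmpr2, Smad3 and Smad2 were lower at 44 h in KO, with no overlap between times. Bmpr1b was 58.0 and 59.2 FPKM at 0 h and 39.9 and 38.9 at 44 h (-0.56, SE 0.32, adjusted p = 0.355), and each KO library at 44 h was above each WT library at that time. Bmpr2 was 9.59 and 7.52 and then 5.09 and 5.36 (-0.61, SE 0.19, adjusted p = 0.144). Smad3 was 15.8 and 10.3 and then 6.23 and 7.69 (-0.79, SE 0.26, adjusted p = 0.160). Smad2 was 7.84 and 8.27 and then 6.90 and 6.71 (-0.21, SE 0.17), nearly the WT difference.

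The other members differed little in KO. Smad4 was 10.1 and 10.01 FPKM at 0 h and 10.6 and 8.19 at 44 h (-0.098, SE 0.21), and Smad5 was 6.08 and 5.33 and then 7.15 and 4.05 (-0.062, SE 0.26). In both genes replicate 1 at 44 h was above all KO 0 h libraries and replicate 2 below them. Smad1 was 3.38 and 3.80 and then 3.85 and 4.42 (0.16, SE 0.20), and Bmpr1a was 10.2 and 9.48 and then 8.25 and 9.53 (-0.13, SE 0.20). In KO, oocyte markers were lower at 44 h in 14 of 14 (sums of 3258 to 3706 FPKM at 0 h and 1025 to 1696 at 44 h). Surface epithelium markers were higher in 7 of 7, with 128 FPKM in replicate 1 and 399 in replicate 2 at 44 h. Endothelial markers summed to 9.40 and 30.6 FPKM in those libraries. Theca and stroma markers were higher in 8 of 11, with sums of 112 to 156 FPKM at 0 h and 252 and 372 at 44 h. Granulosa markers were higher in 8 of 12, with sums of 14509 to 14785 at 0 h and 28500 and 19563 at 44 h. Most of these last 2 sums was Inha, at 23238 and 13862 FPKM. The part of these cells in the values of the 10 genes was not tested.

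Between genotypes at 0 h the 10 genes lay close together, with differences (KO minus WT) from -0.33 to 0.40. Limma called 0 of the 10, against 0.0365% of all genes, and 0 had an unadjusted p under 0.05 (9.69% of all genes did). Smad5 and Id2 were higher in KO without overlap (27.3% of all genes were), and Bmpr2 and Id1 were lower without overlap (19.1% of all genes were). For Id2, KO libraries had 60.9 and 71.7 FPKM against 53.2 and 46.6 for WT (0.40, SE 0.61, adjusted p = 0.906), and for Id1 KO libraries had 18.4 and 14.8 against 21.3 and 20.7 (-0.33, SE 0.28, adjusted p = 0.801). Bmpr2 had 9.59 and 7.52 FPKM in KO against 10.8 and 10.2 (-0.28, SE 0.19, adjusted p = 0.723). Smad5 had 6.08 and 5.33 in KO against 4.92 and 5.02 (0.17, SE 0.26). The libraries overlapped for Smad3 (0.26, SE 0.26), Smad4 (-0.14, SE 0.21), Bmpr1b (0.052, SE 0.32), Smad1 (-0.047, SE 0.20), Smad2 (-0.012, SE 0.17) and Bmpr1a (0.046, SE 0.20, turning to -0.040 after quantile normalization). Oocyte markers were higher in KO in 14 of 14 at this time (median 0.97), surface epithelium markers were lower in 6 of 7, and immune markers summed to 706 and 104 FPKM in KO against 176 and 158 in WT; their part in these differences was not tested.

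At 44 h, Bmpr1b lay higher and Id2 lower in KO than in WT. Limma called 0 of the 10, against 0.0219% of all genes, and 0 had an unadjusted p under 0.05 (9.79% of all genes did). Bmpr1b and Smad4 were higher in KO without overlap (23.9% of all genes were), and Smad1 and Bmpr2 were lower without overlap (15.1% of all genes were). For Bmpr1b, KO libraries had 39.9 and 38.9 FPKM against 34.3 and 15.6 for WT (0.74, SE 0.32, adjusted p = 0.514). The difference was 0.20 without WT replicate 2 and 1.28 without WT replicate 1, so its size rests on which WT library is used. Smad4 had 10.6 and 8.19 in KO against 7.48 and 7.06 (0.32, SE 0.21, adjusted p = 0.624), and Smad1 had 3.85 and 4.42 against 5.96 and 4.998 (-0.33, SE 0.20, adjusted p = 0.592). Bmpr2 had 5.09 and 5.36 against 5.86 and 5.74 (-0.13, SE 0.19). Smad5 (0.32, SE 0.26), Bmpr1a (0.12, SE 0.20), Smad3 (0.062, SE 0.26) and Smad2 (-0.0038, SE 0.17) overlapped between genotypes.

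Id2 at 44 h had 72.3 and 237 FPKM in KO against 551 and 202 in WT (-1.34, SE 0.61, adjusted p = 0.532). KO replicate 2 lay between the WT libraries, and the library labelled KO replicate 1 lay below both. The difference was -0.49 without KO replicate 1 and -2.19 without KO replicate 2. Id1 had 42.1 and 75.5 in KO against 63.5 and 81.3 (-0.34, SE 0.28, adjusted p = 0.686), and this difference was 0.071 without KO replicate 1. Oocyte markers were again higher in KO in 14 of 14 (median 0.90), and immune markers in 6 of 7, with sums of 285 and 351 FPKM against 240 and 169 in WT. Surface epithelium markers summed to 128 and 399 against 216 and 211, and endothelial markers to 9.40 and 30.6 against 20.7 and 26.3, so that KO replicate 1 was below both WT libraries in these lists, as it was for Id2. The part of these cells was not tested.

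The test of whether the PMSG difference itself differed between genotypes (the interaction, KO minus WT) called 0 of the 10 genes, against 0.0438% of all genes, and the adjusted p of each was 1.00. Id2 had the largest value (-1.74, SE 0.86, unadjusted p = 0.083), followed by Bmpr1b (0.69, SE 0.45) and Smad4 (0.46, SE 0.30). At 44 h, the Id2 value was -0.89 without KO replicate 1, -2.59 without KO replicate 2, -1.02 without WT replicate 1 and -2.46 without WT replicate 2. The Bmpr1b value was 1.23 without WT replicate 1 and 0.15 without WT replicate 2, and 0.67 and 0.71 without KO replicate 1 and KO replicate 2. The Smad4 value was 0.29 without KO replicate 1 and 0.63 without KO replicate 2. Id1 had a value of -0.015 (SE 0.40; 0.030 after quantile normalization).

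Ratios between family members within a library do not change when each library is scaled by a factor of its own. Quantile normalization can change them. Bmpr1b made up 85.9% and 85.4% of the summed FPKM of Bmpr1a and Bmpr1b in untreated WT libraries and 85.1% and 86.2% in untreated KO libraries. After PMSG its share was 78.5% and 69.2% for WT and 82.9% and 80.3% for KO, below every 0 h library in all 4. Bmpr1a, Bmpr1b and Bmpr2 together summed to 79.7 and 73.4 FPKM in untreated WT and 77.8 and 76.2 in untreated KO libraries, against 49.5 and 28.3 in treated WT and 53.3 and 53.8 in treated KO libraries. Each library at 44 h was thus below each at 0 h.

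The balance of the receptor-regulated SMADs also differed by time. Smad1 and Smad5 together made up 33.9% and 29.9% of the FPKM of Smad1, Smad2, Smad3 and Smad5 in WT at 0 h, and 42.4% and 40.9% at 44 h. In KO the share was 28.6% and 33.0% at 0 h and 45.6% and 37.0% at 44 h. All 4 libraries at 44 h were above all 4 at 0 h. The sum of Smad2 and Smad3 was 17.6 to 23.6 FPKM over the libraries at 0 h and 12.6 to 14.4 at 44 h, while that of Smad1 and Smad5 was 8.40 to 9.46 and 8.47 to 11.001. No test was made of these shares, which were formed after the values were seen.

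**Figure D3:**
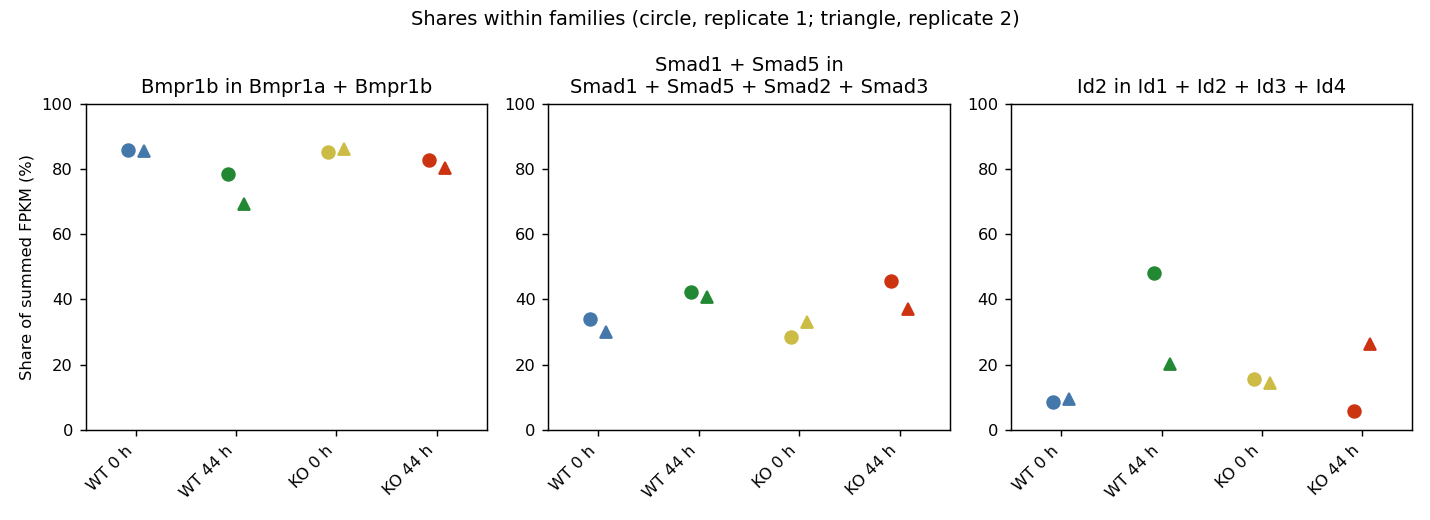
Share of summed FPKM (y axes, 0 to 100%) taken by Bmpr1b in the sum of Bmpr1a and Bmpr1b, by Smad1 and Smad5 among the receptor-regulated SMADs and by Id2 among the ID genes, in each library (circle, replicate 1; triangle, replicate 2). The Bmpr1b share is at or above 85.1% in every 0 h library and at or below 82.9% in every 44 h library.

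Id3, an ID gene outside the 10, was the most abundant of its family in 7 of 8 libraries. It took from 46.1% (WT replicate 1 at 44 h) to 90.5% (KO replicate 1 at 44 h) of the ID family FPKM. For Id3, untreated WT libraries had 542 and 418 FPKM and treated ones 526 and 708. Untreated KO libraries had 307 and 405 and treated ones 1096 and 583, with the highest value in the library labelled KO replicate 1. Its difference was 0.36 (SE 0.33, adjusted p = 0.539) in WT and 1.18 (SE 0.33, adjusted p = 0.131) in KO, an interaction of 0.82 (SE 0.47). Id2 took 8.63% and 9.59% of the ID family FPKM in untreated WT and 48.2% and 20.3% in treated WT. In KO it took 15.7% and 14.5% at 0 h, then 5.97% in replicate 1 and 26.4% in replicate 2. The library in which Id2 was lowest among those at 44 h was thus the one in which Id3 was highest. Id4 was at most 1.71 FPKM in any library.

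Other genes of the pathway were read from a list of 59 symbols, of which 58 were in the table (Ccn2 stands there under its older symbol Ctgf, also listed) and 47 were tested. Limma called 0 of the 47 in each of the 5 comparisons. At an unadjusted p under 0.05 there were 21 in WT over time, against 24.1% of all genes. There were 19 in KO over time, against 21.1% of all genes. Between genotypes there were 8 at 0 h (9.69% of all genes) and 4 at 44 h (9.79%). The interaction had 2 (1.82% of all genes). In WT over time 17 were higher and 30 lower (median -0.36), where 61.9% of all genes were lower, and in KO 15 and 32 (median -0.18), where 60.6% of all genes were lower. After median-of-ratios scaling these were 19 and 28 in WT (51.3% of all genes lower) and 20 and 27 in KO (49% of all genes lower).

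The oocyte ligands Gdf9 and Bmp15 were lower at 44 h in each genotype: in WT, Gdf9 went from 452 and 743 FPKM at 0 h to 228 and 237 at 44 h (-1.31, SE 0.30, adjusted p = 0.102). In KO it was 1200 and 1055 and then 561 and 347 (-1.35, SE 0.30, adjusted p = 0.110). Bmp15 was 86.1 and 155 and then 52.6 and 33.1 in WT (-1.45, SE 0.34, adjusted p = 0.104). Both belong to the oocyte markers described above. In WT, Bmp2 went from 20.8 and 24.2 FPKM at 0 h to 5.41 and 5.18 at 44 h (-1.90, SE 0.42, adjusted p = 0.10), and Bmp6 was 4.63 and 5.001 and then 1.59 and 1.86 (-1.10, SE 0.18, adjusted p = 0.0776). Inhbb, an activin and inhibin subunit, was 91.3 and 96.4 in KO at 0 h and 194 and 273 at 44 h (1.28, SE 0.21, adjusted p = 0.0813).

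With the 4 WT libraries alone limma called 8 of the 47, against 6.9% of all genes: Amh, Atoh8, Bmp2, Bmp6 and Gdf9 fell, and Eng, Inhba and Inhbb rose. Atoh8 and Inhbb were close to the threshold there (adjusted p = 0.0499 and 0.0498). Eng encodes endoglin, a co-receptor abundant in endothelial cells. In WT its level went from 0.574 and 0.743 FPKM at 0 h to 4.24 and 4.42 at 44 h, alongside the endothelial markers given above. Without KO replicate 1 at 44 h limma called 10 of the 47 in KO over time, against 8.54% of all genes: Amh, Atoh8, Gdf9, Nog, Ski and Tgfb2 fell, and Eng, Grem1, Inhba and Inhbb rose. These calls rest on KO replicate 2 alone at 44 h, and replicate 1 lay nearer to the 0 h libraries for all of them but Nog. Eng was 1.30 and 1.16 FPKM in KO at 0 h, then 1.28 in replicate 1, inside that range, and 6.29 in replicate 2. Grem1 was 6.25 and 4.05, then 8.18 and 47.5 in the same order, and Inhba was 511 and 360, then 1300 and 3879. Among those that fell, Amh was 81.3 and 61.6, then 46.4 and 8.47, Atoh8 was 7.57 and 5.80, then 3.02 and 0.590, Ski was 20.4 and 19.6, then 12.8 and 6.44, and Tgfb2 was 29.2 and 28.5, then 17.3 and 9.70. Nog, at 0.415 and 0.406, was alike in the 2 libraries. Without KO replicate 2, limma called 2 of the 47 for KO against WT at 44 h, against 5.85% of all genes: Bmper and Eng were lower in KO.

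**Figure D4:**
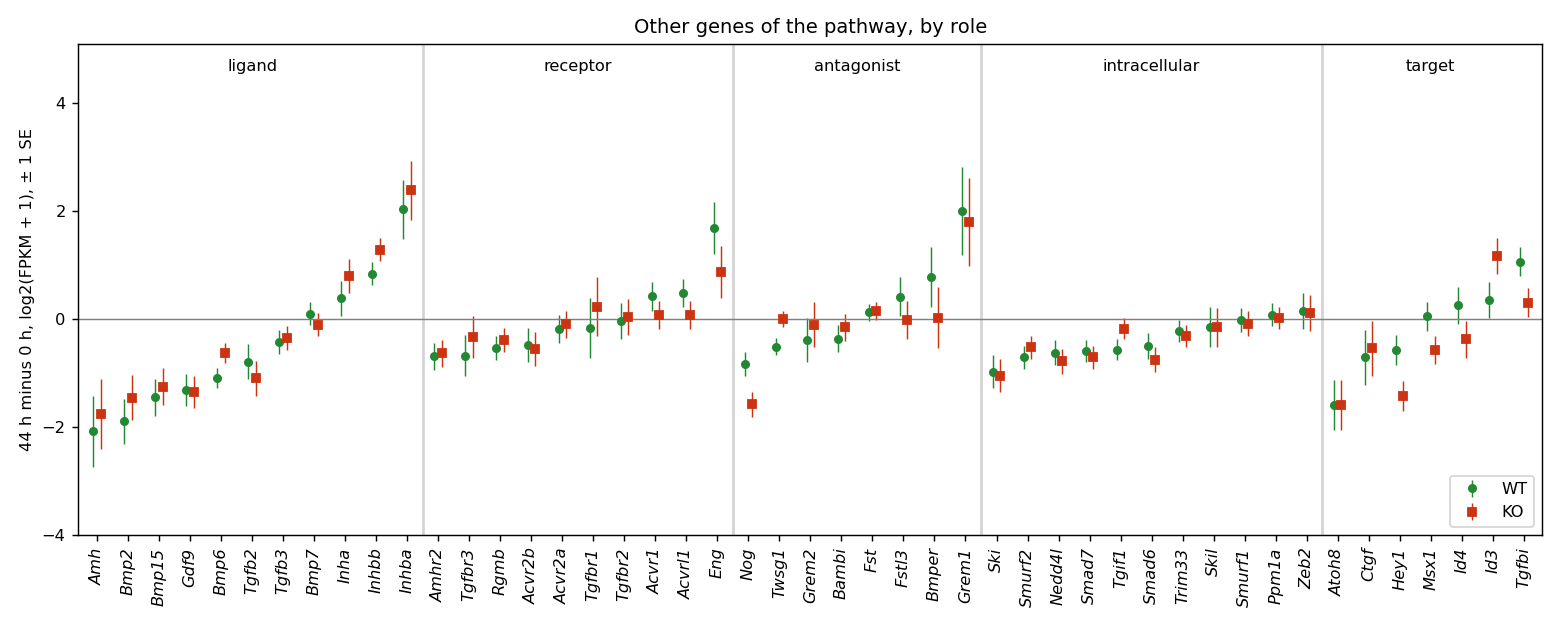
Differences between 44 h and 0 h in log2(FPKM + 1) (y axis, bars 1 SE) for the 47 tested pathway genes outside the 10, grouped by role, in WT (circles) and KO (squares). The oocyte ligands Gdf9 and Bmp15, Bmp2 and Amh lie below 0 in each genotype, and Inhba, Inhbb and Grem1 lie above 0.

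The inhibitory SMADs, which are themselves pathway targets and restrain the receptors, were lower at 44 h, unlike Id1. In WT, Smad7 went from 3.54 and 3.0 FPKM at 0 h to 1.98 and 1.67 at 44 h (-0.60, SE 0.21, adjusted p = 0.156), and in KO from 4.03 and 4.41 to 2.56 and 1.86 (-0.71, SE 0.21, adjusted p = 0.139). Smad6 was 1.08 and 1.88 and then 0.814 and 0.653 in WT (-0.50, SE 0.23, adjusted p = 0.242), and 2.04 and 1.86 and then 0.917 and 0.596 in KO (-0.75, SE 0.23, adjusted p = 0.147). Neither gene overlapped between times in either genotype, and neither passed. Of all genes, 40.6% in WT and 34.1% in KO were lower at 44 h without overlap. Smad9 was at most 0.569 FPKM and was not tested.

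Among extracellular antagonists, Nog, which binds BMPs directly, had 2.86 and 3.63 FPKM in untreated KO against 0.564 and 1.117 in untreated WT (1.22, SE 0.22, adjusted p = 0.271). In KO at 44 h it was 0.415 and 0.406 (-1.58 against KO at 0 h, SE 0.22, adjusted p = 0.0689). In WT at 44 h it was 0.0452 and 0 (-0.83 against WT at 0 h, SE 0.22, adjusted p = 0.112 in limma). Twsg1, another BMP-binding protein, had 45.3 and 48.9 in untreated KO against 64.1 and 73.3 in untreated WT (-0.53, SE 0.15, adjusted p = 0.385). Bambi, a receptor-like protein without a kinase, had 4.20 and 6.13 in treated KO against 2.83 and 1.97 in treated WT (0.85, SE 0.24, adjusted p = 0.491), the smallest p of the list there. At 44 h Gdf9, Bmp15 and Bmp6 were also higher in KO, by 0.92, 1.14 and 0.53, with adjusted p of 0.497, 0.494 and 0.497 in limma. Of the targets, Hey1 was 6.39 and 6.10 FPKM in KO at 0 h and 1.19 and 2.35 at 44 h (-1.42, SE 0.28, adjusted p = 0.0965), and Tgfbi had 5.45 and 4.87 in untreated KO against 2.07 and 3.36 in untreated WT (0.75, SE 0.27, adjusted p = 0.462). In the interaction Twsg1 (0.51), Nog (-0.75), Hey1 (-0.85) and Tgfbi (-0.76) had the smallest p, each with an adjusted p of 1.00. The sign of the Nog value depends on the log2(FPKM + 1) scale, on which changes of low genes come out too small. As a ratio of group means its fall was larger in WT (0.841 to 0.0226 FPKM) than in KO (3.25 to 0.411 FPKM).

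The genes most like each member across the 8 libraries were found by Pearson correlation of log2(FPKM + 1), as a description over libraries of which pairs share a group. Id1 was most like Tspo, which encodes a mitochondrial cholesterol-binding protein (r = 0.988), and Id2 was most like Hdc, which encodes histidine decarboxylase (r = 0.989). Bmpr2 was most like Pdp1 (0.990) and the transcription factor gene Sox4 (0.975), Bmpr1b like Gcc2 and Scrn3 (0.979 each) and Bmpr1a like Rlf (0.982). Among the SMADs, Smad2 was most like Poli (0.988), Smad3 like Usp38 (0.985), Smad5 like Magoh (0.971), Smad1 like Mrfap1 (0.968) and Smad4 like Rtf1 (0.949). Within the 10 genes, the strongest correlations were Smad2 with Id1 (r = -0.935) and Smad1 with Id2 (0.920). Smad2 with Bmpr2 (0.882) and Bmpr1a with Bmpr1b (0.878) followed. Id1 and Id2 had r = 0.823 with each other.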

How the data were processed

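RNA from 8 granulosa cell libraries was extracted with Trizol, and both a TruSeq and a TruePrep kit with paired-end sequencing are named, per the labels' protocols. Per the file headers, the authors deposited FPKM values, with a column for each library. TopHat2 2.1.1, Cufflinks 2.2.1 and the build mm9 appear per the submitters' processing notes, which state no roles; the annotation is not given in the sources used here. FPKM sums ranged from 675557 to 753216. Relative depth was read from the steps between low values.

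Values were analysed as log2(FPKM + 1). Genes with at least 1 FPKM in at least 2 libraries were kept (13688 of 23235, all 10 members among them). Group means were fitted to 8 libraries with limma 3.58.1 in R 4.3.3 (mean-variance trend, two-sided, 4 residual degrees of freedom), with Benjamini-Hochberg adjustment over all genes in each of 5 comparisons and calls at an adjusted p under 0.05. The fit was also run on simulated data with changes set in WT at 44 h. Their spread was taken without the KO libraries at 44 h, so the fit with that pair was not tested. The members, the pathway and marker lists and the naming rule were chosen with earlier results of these data known. All 10 members are named. Of the pathway list, the rule names called genes, up to 4 with the smallest p per comparison, and Smad6, Smad7, Smad9, Id3 and Id4; genes named from other fits were chosen after their values were seen. Alternatives changed the pseudocount, filter, scaling, library weights, empirical Bayes setting, replicate block and libraries used. A filter reapplied to the groups compared was added after seeing the data.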

Additional observations from a re-analysis of the deposited data

How the results depend on the processing

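The number of the 10 genes called by limma stayed at 0 under every alternative run for the 2 comparisons between genotypes and the interaction. For 44 h against 0 h in WT it was 2 with only the groups compared, 3 with the filter reapplied to those groups, 4 with library weights (6.9%, 12.8% and 11.9% of all genes were called in these fits) and 0 to 2 on leaving out 1 library, with 2 without either KO library at 44 h. In KO over time it was 0 to 1, with 1 without KO replicate 1 at 44 h. The count of pathway genes called in WT over time was 8 with only the groups compared, 12 with the filter reapplied, 14 with library weights and 0 to 12 on leaving out 1 library, 12 without either KO library at 44 h. The count of pathway genes called in KO over time was above 0 just without KO replicate 1 at 44 h. For KO against WT at 44 h it was above 0 just without KO replicate 2, through Bmper and Eng, which were lower in KO replicate 1. Fits that leave a group with 1 library assume that it varies like the others. With a replicate block, 0 of the 10 and 0 pathway genes were called in each comparison. Deviations of same-numbered libraries from their group means correlated across genes at -0.113 to -0.00684 between groups. The samples share only a number.

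Of 50 differences of the 10 genes, 30 kept their direction throughout, all 10 in WT over time among them. None of the 20 others was called, and the cause was not tested. Under median-of-ratios scaling Bmpr1a reversed to -0.000475 (KO minus WT at 0 h), and Smad5 and Smad4 in KO over time to 0.058 and 0.030. After quantile normalization Bmpr1a reversed to -0.040 at 0 h, Smad3 to -0.0099 at 44 h, Smad5, Smad4 and Bmpr1a in KO over time to 0.099, 0.060 and 0.033, and Id1 in the interaction to 0.030. Ranges on leaving out 1 library were, for KO minus WT at 0 h Smad1 -0.16 to 0.068, Smad2 -0.056 to 0.033, Smad3 -0.024 to 0.55, Smad4 -0.35 to 0.068, Bmpr1b -0.013 to 0.12; for KO minus WT at 44 h Smad5 -0.025 to 0.66, Smad2 -0.022 to 0.014, Smad3 -0.099 to 0.22, Bmpr1a -0.071 to 0.31, Id1 -0.76 to 0.071; for 44 h minus 0 h in KO Smad5 -0.41 to 0.28, Smad4 -0.26 to 0.067; for the interaction Smad5 -0.19 to 0.50, Smad2 -0.037 to 0.053, Smad3 -0.49 to 0.086, Bmpr1a -0.12 to 0.27, Bmpr2 -0.0072 to 0.31, Id1 -0.43 to 0.40.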
